A study of Mus musculus with 11 samples.

Results

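The 10 genes described here encode the histone variant H3.3, its chaperones Daxx and Atrx, the HIRA complex and the upstream H3 chaperones Asf1a, Asf1b and Nasp. They were chosen by symbol, and all 10 were found among the 24421 genes of the count table. The data were 11 RNA-seq libraries of mouse oocytes arrested in the second meiotic metaphase (MII) and of 2-cell embryos, each made from 1 pool of 50 oocytes or embryos taken from 2 to 3 females. Every female, control or knockout, was homozygous for the floxed Daxx allele Daxxtm2Led, on a mixed C57BL/6J and 129/Sv background. Control oocytes (Daxx f/f, 3 libraries) lacked Cre. Knockout oocytes (Daxx f/f; Zp3-cre, 3 libraries) came from females carrying Tg(Zp3-cre)93Knw, whose Zp3 promoter is active in growing oocytes, so the knockout differs from the control by the transgene as well as by Daxx. Females were over 8 weeks old and oocytes were collected 20 hours after hCG, given after PMSG to induce ovulation. Control embryos (m+z+, 3 libraries) came from such oocytes of Daxx f/f females without Cre. Maternal knockout embryos (m-z+, 2 libraries) came from such oocytes of Daxx f/f females with Zp3-cre. The oocytes were fertilised in vitro with JF1 sperm, and the embryos were lysed 33 hours later. The knockout embryos therefore received a paternal chromosome set from a male whose own genotype the labels do not give beyond its strain. In the labels, m-z+ marks embryos without maternal and with zygotic Daxx.

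Totals of counted reads ran from 32582998 to 39798586 in oocyte libraries and from 17978192 to 25308468 in embryo libraries. Levels are given as CPM, the count scaled to the library total, and 3 reads correspond to 0.0754 to 0.167 CPM. The 10 oocyte markers summed to 13156 to 13712 CPM in oocytes and 1677 to 2213 in embryos, whereas 10 markers of the 2-cell stage summed to 3.07 to 8.56 CPM in oocytes and 652 to 901 in embryos. Of 12 granulosa and cumulus markers, 4 or 5 reached 1 CPM in each group, with Fst and Ptx3 at 0 reads in both oocyte groups and Inha at 0 in both embryo groups. Their sum was 88.9 to 97.0 CPM in control oocytes, 89.5 to 99.1 in knockout oocytes, 276 to 321 in control embryos and 239 to 298 in maternal knockout embryos. Of 10 spermatid and sperm genes, Tnp1, Tnp2, Spata3 and Smcp had 0 reads in both oocyte groups, and none was at 0 in embryos. Their sums were 202 to 223 CPM in oocytes and 235 to 269 in embryos. Few genes carried them, as 3 reached a mean of 1 CPM in control oocytes and 4 in knockout oocytes. In control embryos 1 did, and in maternal knockout embryos 2. The granulosa and sperm sums are not split by gene, so they are not read as amounts of these cells. The part of these markers in the stage changes below was not tested. Reads assigned to Lars2, which often reflect ribosomal sequence, made up 0.142% to 0.201% of the reads in oocytes and 0.482% to 1.85% in embryos. Replicate 2 was highest in both embryo groups, at 1.85% in control and 1.81% in maternal knockout embryos. The remaining embryo libraries stood at 0.482%, 0.871% and 0.552%. The part of this in results that depend on maternal knockout embryo replicate 2 was not tested.

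Histone H3.3 is made throughout the cell cycle and is placed into chromatin without DNA replication, unlike the replication-dependent H3 proteins. The HIRA complex places it at active genes and, after fertilisation, in the paternal genome, while Daxx with the ATPase Atrx places it at telomeres, pericentromeric repeats and retroelements. Oocytes do not replicate their DNA, and H3.3 is the variant they keep depositing. H3f3a, on chromosome 1 from 180802560 to 180813605, and H3f3b, on chromosome 11 from 116021961 to 116026039 (GRCm38, minus strand for both), encode the same H3.3 protein. The stretches below run from codon 82 to codon 95, counted without the initiator methionine, and are shown because they hold the patch by which Daxx tells H3.3 from other H3 proteins. They come from the GENCODE vM21 transcripts, 5′ to 3′, and capitals mark the 3 codons whose encoded residue differs between H3.3 and the replication-dependent H3 gene Hist1h3e (chromosome 13 from 23561534 to 23562369, minus strand).
H3f3a: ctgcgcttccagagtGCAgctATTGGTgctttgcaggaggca
H3f3b: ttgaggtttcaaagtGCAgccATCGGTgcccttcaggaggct
Hist1h3e: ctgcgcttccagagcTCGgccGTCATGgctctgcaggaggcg

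Over their whole coding sequences of 411 bases, H3f3a and H3f3b differed at 95 bases and at 0 encoded residues, and no identical run was longer than 23 bases. Each differed from Hist1h3e at 4 residues, with 77.9% of bases identical for H3f3a and 81.0% for H3f3b. Within the coding part, an error-free read longer than that run can thus be assigned to 1 of the pair, although the sources used here do not say how the authors' counting treated reads shared with processed copies elsewhere in the genome.

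Daxx, on chromosome 17 from 33909404 to 33915590, is the targeted gene and was examined first. Control oocytes held 97.2, 94.2 and 86.2 CPM in replicates 1, 2 and 3, and knockout oocytes 8.20, 8.40 and 7.83 CPM (313, 316 and 296 reads). The 2 genotypes were far apart, with the knockout mean at 8.80% of the control mean, an 11.4-fold difference. In 2-cell embryos the control libraries stood at 37.3, 35.2 and 46.7 CPM and the maternal knockout libraries 2 and 3 at 22.8 and 25.5. The embryo groups did not overlap either, but the gap had narrowed, and the knockout mean was 60.8% of the control mean. The log2 difference between genotypes was -3.52 (95% interval -3.67 to -3.38, edgeR adjusted p = 1.24e-11) in oocytes. In embryos it was -0.75 (-1.14 to -0.36), with an unadjusted p of 0.000811. The edgeR adjusted p was 0.544, or 0.0348 when all 11 libraries shared 1 fit. The counts span the whole gene, and the sources used here do not give the part that recombination removes.

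Daxx moved in opposite directions between the stages in the 2 maternal genotypes. From control oocytes to control embryos its mean fell from 92.6 ± 5.67 to 39.7 ± 6.14 CPM (SD, n = 3 each), a 2.33-fold decline with all embryo libraries below all oocyte libraries (log2 -1.25, SE 0.12, edgeR adjusted p = 9.18e-07). From knockout oocytes to maternal knockout embryos it rose 2.97-fold, from 8.14 ± 0.286 (SD, n = 3) to 24.2 ± 1.88 CPM (SD, n = 2), with both embryo libraries above all 3 oocyte libraries (log2 1.52, SE 0.13, edgeR adjusted p = 3.71e-06). Subtracting the oocyte genotype effect from the embryo genotype effect gave 2.76 (SE 0.16, edgeR adjusted p = 3.38e-07). Among all 17018 genes tested for this difference 0.0118% were called, and Daxx was the 1 called gene of the 10. CPM values are shares of a pool's counted reads, so fewer cells carrying a transcript and less transcript per cell cannot be told apart, and no amount per oocyte or embryo is measured.

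**Figure D1:**
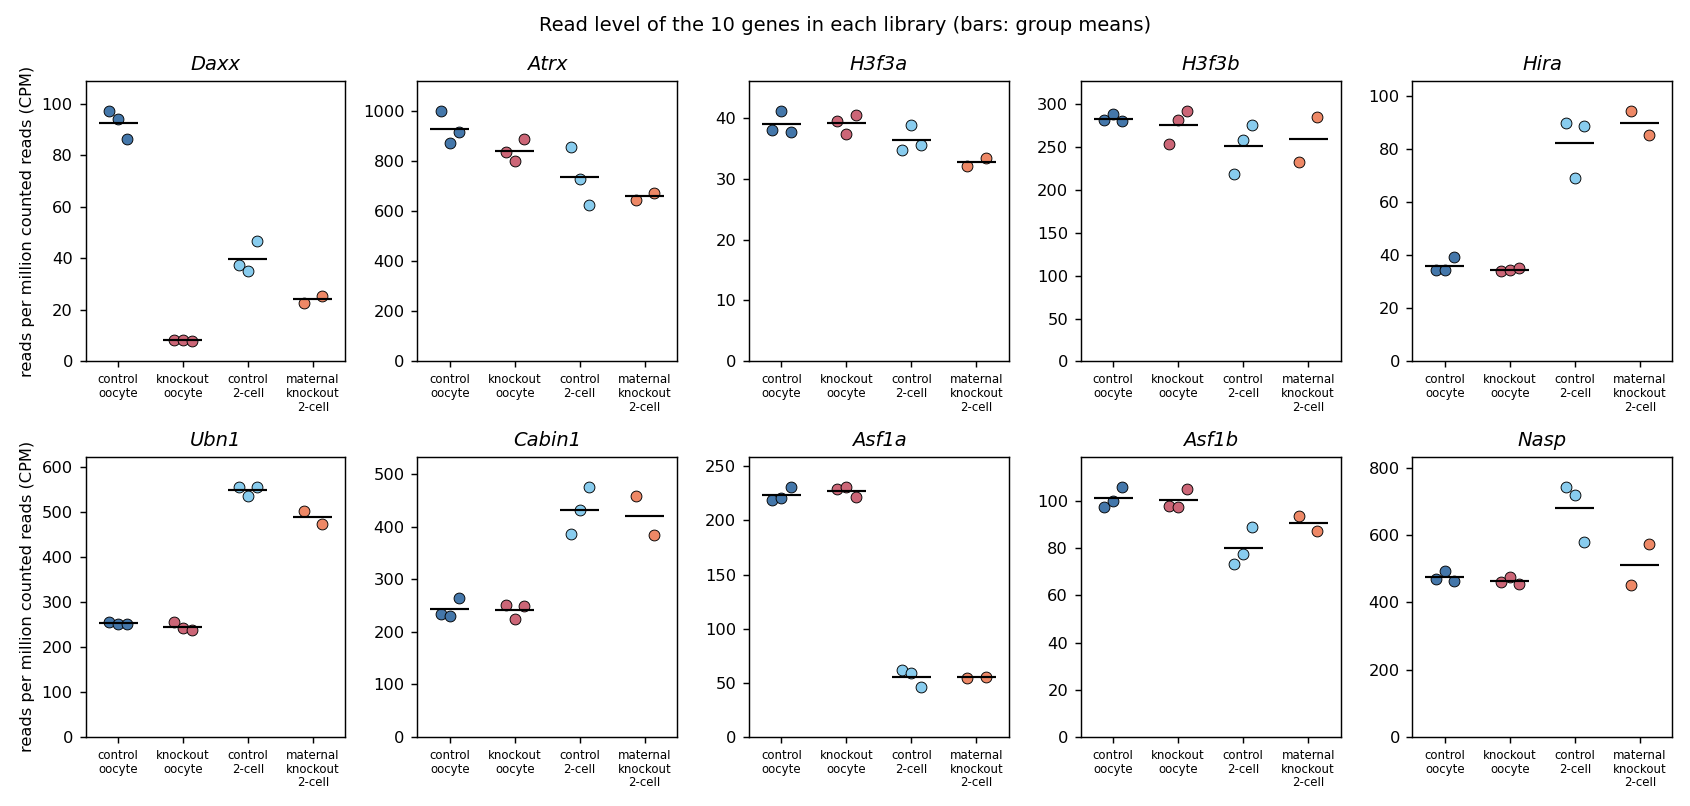
Read level in CPM of each of the 10 genes (vertical axis, linear and starting at 0) in control oocytes, knockout oocytes, control 2-cell embryos and maternal knockout 2-cell embryos. Each point is 1 library and each bar a group mean. Daxx drops from 92.6 to 8.14 CPM between the oocyte genotypes, whereas Hira, Ubn1, Cabin1 and Asf1a differ mainly between the stages.

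Atrx, the X-linked ATPase that works with Daxx (chromosome X from 105797615 to 105929372), had the highest read level of the 10 genes in CPM in oocytes, a scale not corrected for transcript length. Control oocytes held 998, 869 and 915 CPM and knockout oocytes 834, 798 and 886. The ranges overlapped, and the difference of -0.16 (95% interval -0.29 to -0.03) had an unadjusted p of 0.0179 and an edgeR adjusted p of 0.347, so it did not pass. In embryos, control libraries held 854, 728 and 624 CPM and maternal knockout libraries 644 and 673, again overlapping (log2 -0.20, interval -0.52 to 0.13). The stage fall was small at both genotypes, with log2 -0.36 in control libraries (SE 0.12, edgeR adjusted p = 0.0157) and -0.40 in those of knockout females (SE 0.08, edgeR adjusted p = 0.00162). The control call was lost in DESeq2 (adjusted p = 0.0814) and with RLE size factors in edgeR (adjusted p = 0.0687).

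The 2 genes for H3.3 itself held nearly level across the 4 groups, and neither genotype comparison passed for them. H3f3a stood at 38.0, 41.1 and 37.6 CPM in control oocytes and at 39.4, 37.3 and 40.5 in knockout oocytes. Its embryo values were 34.7, 38.8 and 35.5 CPM in control and 32.1 and 33.4 in knockout libraries, and the latter lay just below the controls (log2 -0.18, 95% interval -0.55 to 0.18, edgeR adjusted p = 1.00). H3f3b, the one of the pair with more counted reads, stood at 281, 288 and 280 CPM in control oocytes and at 254, 281 and 292 in knockout oocytes. In embryos, control libraries gave 219, 258 and 276 CPM and knockout libraries 233 and 285, which overlapped. Between the oocyte genotypes the 95% intervals of the log2 difference were -0.16 to 0.13 for H3f3a and -0.17 to 0.06 for H3f3b.

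From oocyte to embryo, H3f3a changed by -0.12 on the log2 scale in control libraries (edgeR adjusted p = 0.297) and by -0.30 in libraries of knockout females (edgeR adjusted p = 0.0200). The second call was lost in DESeq2, with RLE size factors, with the replicate block (edgeR adjusted p = 0.0686) and without knockout oocyte replicate 3 (edgeR adjusted p = 0.0848). H3f3b changed by -0.20 in control libraries (edgeR adjusted p = 0.0593) and by -0.14 in those of knockout females (edgeR adjusted p = 0.297). The first passed in limma-voom, with no filter and with all libraries in 1 fit, and without control embryo replicate 3 it was -0.26 (edgeR adjusted p = 0.0199). The second was -0.33 without maternal knockout embryo replicate 3 (edgeR adjusted p = 0.00842) and 0.02 without replicate 2 (edgeR adjusted p = 0.878), so its direction also depends on 1 library. Exons of H3f3a share 638 and 160 bases with the opposite-strand transcripts Gm17275 and H3f3aos in GENCODE vM21, and whether counting used strand is not given, so its reads may include theirs.

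Per kilobase of the gene width in the authors' table, H3f3b exceeded H3f3a in every library. The size of this ratio depends on those widths, 1455 bases for H3f3a and 1993 for H3f3b. It also depends on how reads shared with processed copies were counted, which is not given. The ratio averaged 5.31 ± 0.172 (SD, n = 3) in control oocytes, 5.16 ± 0.410 (SD, n = 3) in knockout oocytes, 5.04 ± 0.566 (SD, n = 3) in control embryos and 5.76 ± 0.648 (SD, n = 2) in maternal knockout embryos. These ratios overlapped between all 4 groups, so the balance of the 2 genes did not separate them. Set against 11 replication-dependent H3 genes, whose near-identical copies make each one uncertain alone, H3f3a and H3f3b together took 31.3%, 29.8% and 29.9% of H3 gene reads in control oocytes. Knockout oocytes gave 25.5%, 28.2% and 33.6%, on both sides of the controls. Control embryos gave 12.5%, 24.8% and 25.2% and maternal knockout embryos 20.2% and 19.7%, all below every oocyte library, though the highest embryo value (25.2%) nearly met the lowest oocyte value (25.5%). The low share of control embryo replicate 1 went with 1773 CPM of replication-dependent H3 reads there, against 899 and 926 in the other control embryos, and it stands apart from both. The largest part of the replication-dependent reads in each group was assigned to Hist1h3f. Its mean was 491 CPM in control oocytes and 713 in control embryos, where it ran from 483 to 1138. The control embryos thus lay on both sides of the maternal knockout embryos, and the shares did not separate the embryo genotypes. The shares are descriptions without a test.

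**Figure D2:**
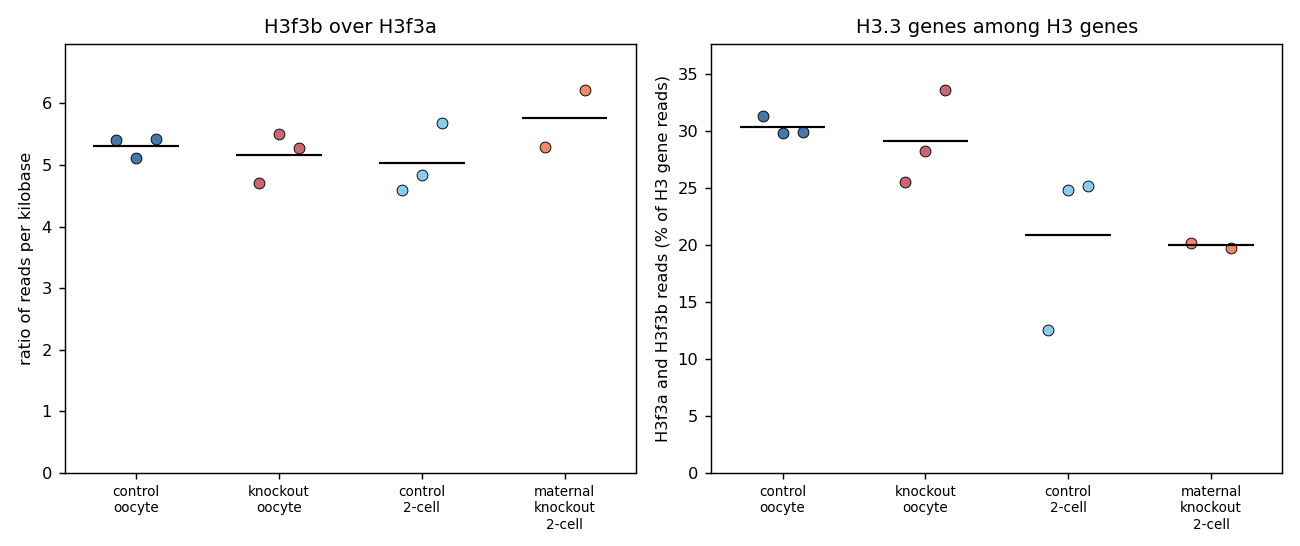
Left, ratio of H3f3b to H3f3a in reads per kilobase. Right, reads of H3f3a and H3f3b as a percentage of the reads of all 13 H3 genes counted. Each point is 1 library and each bar a group mean, with control embryo replicate 1 at 12.5% lying apart on the right.

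Each of the 3 genes of the HIRA complex was higher in embryos than in oocytes at both maternal genotypes. Over all genes tested, 43.1% were called higher in control libraries and 42.5% in those of knockout females. The rise is therefore not read as particular to the complex. Hira, the H3.3 chaperone that names the complex (chromosome 16 from 18876750 to 18970309), stood at 34.4, 34.4 and 39.2 CPM in control oocytes and at 34.2, 34.3 and 35.2 in knockout oocytes. Its embryo values were 89.8, 69.0 and 88.6 CPM in control and 94.4 and 85.5 in knockout libraries, so that every embryo library exceeded every oocyte library. The stage rise was 2.29-fold in control libraries (log2 1.17, SE 0.12, edgeR adjusted p = 2.97e-06) and 2.60-fold in those of knockout females (log2 1.33, SE 0.08, edgeR adjusted p = 3.89e-07). In GENCODE vM21 the exons of Hira share 2778 of their 6215 bases with the same-strand gene model Gm28539. That model was not found by its symbol among the counted genes. How counting treated reads from the shared part is not given, so the level of Hira may be affected.

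Ubn1 (chromosome 16 from 5050057 to 5086289), which encodes the subunit that binds H3.3 within the complex, rose by a like amount. Control oocytes held 256, 252 and 251 CPM, knockout oocytes 255, 243 and 238, control embryos 555, 535 and 556, and maternal knockout embryos 502 and 474. Both knockout embryo libraries lay below all 3 control embryos, but the difference of -0.20 (95% interval -0.48 to 0.07) had an edgeR adjusted p of 1.00. Its stage rise was 2.17-fold in control libraries (log2 1.09, SE 0.08, edgeR adjusted p = 7.50e-08) and 1.99-fold in those of knockout females (log2 0.94, SE 0.07, edgeR adjusted p = 8.76e-07). Cabin1 (chromosome 10 from 75646110 to 75764357), which encodes a further subunit of the complex and is also known as a calcineurin inhibitor, stood at 234, 230 and 265 CPM in control oocytes and 251, 224 and 250 in knockout oocytes. Its embryo levels were 386, 431 and 476 CPM in control and 458 and 384 in knockout libraries, a clear rise with overlapping genotypes. The log2 stage change was 0.80 (SE 0.10, edgeR adjusted p = 9.66e-06) in control and 0.75 (SE 0.09, edgeR adjusted p = 2.84e-05) in knockout libraries.

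The chaperones that carry H3 with H4 before deposition did not move as 1 group. Asf1a (chromosome 10 from 53596961 to 53609225), which hands H3 and H4 to the HIRA complex, had the steepest stage fall of the 10 genes. Its values were 219, 221 and 231 CPM in control oocytes and 229, 231 and 222 in knockout oocytes, against 61.7, 59.4 and 46.3 in control embryos and 54.8 and 55.9 in maternal knockout embryos. The stages were fully separated and the genotypes overlapped at each. The fall was 4.01-fold in control libraries (log2 -2.03, SE 0.12, edgeR adjusted p = 1.90e-08) and 4.11-fold in those of knockout females (log2 -2.08, SE 0.08, edgeR adjusted p = 1.34e-08). Exons of Asf1a share 1748 bases with the opposite-strand gene Mcm9 in GENCODE vM21, and Mcm9 was counted at 126 ± 7.27 CPM in control oocytes and 67.9 ± 1.44 in control embryos (SD, n = 3 each). The part of Mcm9 reads in the Asf1a values was not tested.

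Asf1b (chromosome 8 from 83955694 to 83970195), the paralogue linked to dividing cells, fell far less. It stood at 97.6, 99.9 and 106 CPM in control oocytes, 98.0, 97.6 and 105 in knockout oocytes, 73.5, 77.4 and 88.8 in control embryos and 93.8 and 87.4 in maternal knockout embryos. The control fall of -0.37 passed (SE 0.10, edgeR adjusted p = 0.00386), whereas the change of -0.19 in libraries of knockout females did not (SE 0.08, edgeR adjusted p = 0.0518). It passed in limma-voom, with no filter, with all libraries in 1 fit and without maternal knockout embryo replicate 2 (edgeR adjusted p = 0.0294). The embryo genotype effect minus the oocyte one was 0.17 (95% interval -0.10 to 0.44, edgeR adjusted p = 0.936), so a different fall in the 2 maternal genotypes was not shown.

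Nasp (chromosome 4 from 116601052 to 116628676) encodes the chaperone that protects the soluble pool of H3 and H4. Oocytes held 470, 492 and 462 CPM in control and 461, 475 and 454 in knockout libraries, which overlapped. Control embryos held 743, 719 and 580 CPM and maternal knockout embryos 450 and 574, both below all 3 controls, though 574 and 580 nearly met. Among the 9 genes other than Daxx this was the largest embryo difference, at -0.44 (95% interval -0.79 to -0.10), with an unadjusted p of 0.0153 and an edgeR adjusted p of 1.00. It ranged from -0.25, without maternal knockout embryo replicate 2, to -0.67, without replicate 3, and did not pass in any alternative fit. From oocyte to embryo Nasp rose in control libraries (log2 0.50, SE 0.11, edgeR adjusted p = 0.000992). In libraries of knockout females the change was 0.10 (SE 0.11, edgeR adjusted p = 0.422), so it did not pass. It was 0.28 without maternal knockout embryo replicate 2 (edgeR adjusted p = 0.00186) and -0.13 without replicate 3 (edgeR adjusted p = 0.104), so its direction rests on which of the 2 libraries is kept. The embryo genotype effect minus the oocyte one was -0.40 (95% interval -0.75 to -0.05, unadjusted p = 0.0277, edgeR adjusted p = 0.912).

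Read across the 10 genes, the low Daxx level of knockout oocytes was accompanied by no called change in the other 9. In oocytes 1 of 10 was called, Daxx itself, while 0.583% of the 14235 genes tested were called in either direction. Atrx was the only other of the 10 with an unadjusted p under 0.05, which 10.3% of all genes tested had. For the 9 other genes, the 95% intervals lay within -0.29 to 0.13 on the log2 scale, the lower bound belonging to Atrx and the -0.24 of Hira coming next. In embryos 0 of 10 were called in edgeR, DESeq2 or limma-voom, beside 0.026% of 15414 genes in edgeR, and Daxx and Nasp had an unadjusted p under 0.05, beside 3.19% of all genes tested. For the 9 others the intervals there were wider, with 2 knockout libraries, and reached from -0.79 for Nasp to 0.46 for Asf1b. A change of these sizes could therefore be missed in embryos. In CPM, Daxx, H3f3a, Ubn1 and Nasp were the 4 of 10 genes whose knockout embryo libraries lay below all controls, and 0 lay above. Of the 15414 genes tested 6.38% lay below and 11.4% above in this way, and H3f3a, Ubn1 and Nasp each had an edgeR adjusted p of 1.00, so the separation is given as a description only.

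**Figure D3:**
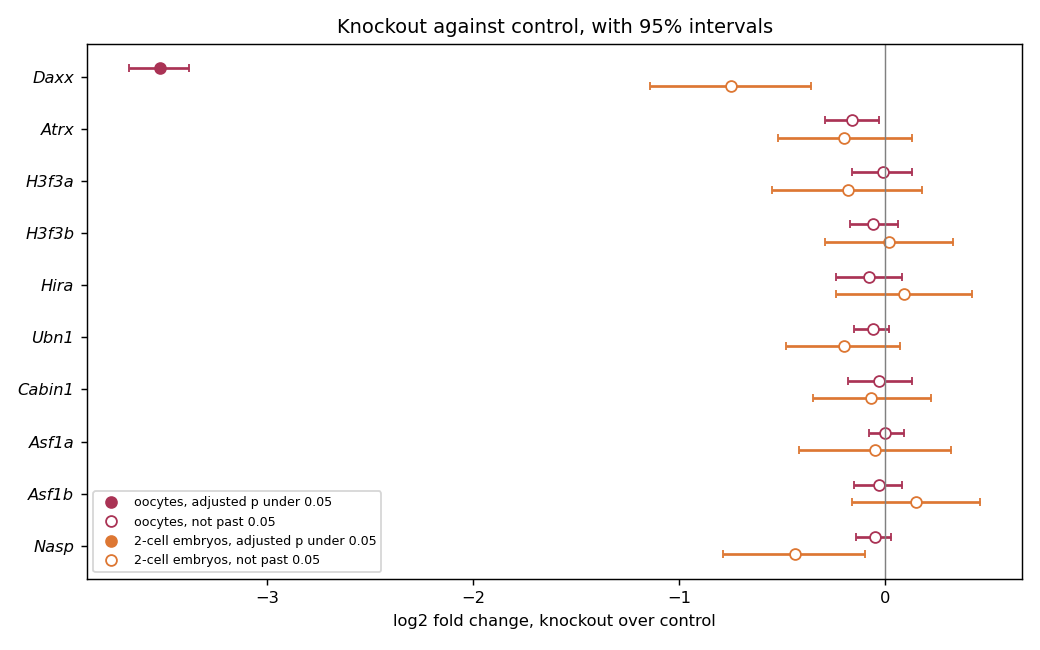
Log2 fold change of knockout over control for the 10 genes in oocytes and in 2-cell embryos, from edgeR. Bars are 95% intervals and filled points have an adjusted p under 0.05 over all genes tested. Daxx in oocytes, at -3.52, is the 1 filled point, and the embryo intervals are wider than the oocyte intervals.

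Between the stages most of these genes were called, as were most genes of the table. In control libraries 4 of 10 were higher in embryos (Hira, Ubn1, Cabin1 and Nasp) against 43.1% of the 15577 genes tested, and 4 were lower (Daxx, Atrx, Asf1a and Asf1b) against 40%. With a change of at least 2-fold required, 2 were higher (Hira and Ubn1) against 33% of all genes, and 2 lower (Daxx and Asf1a) against 28.5%. In libraries of knockout females 4 were higher (Daxx, Hira, Ubn1 and Cabin1) against 42.5% of 16592 genes, and 3 lower (Atrx, H3f3a and Asf1a) against 37.7%. At least 2-fold changes were called for Daxx and Hira upward, against 33.2%, and for Asf1a downward, against 26.4%. The counts per direction are near the shares of the whole table, those of at least 2-fold changes are below them on 1 or 2 genes each, and none is read as particular to the 10 genes. The 2 stage comparisons share no library with each other but share all of theirs with the genotype comparisons. In them the median log2 change of the 10 was -0.16 and -0.02, beside 0.07 and 0.09 over all genes tested.

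**Figure D4:**
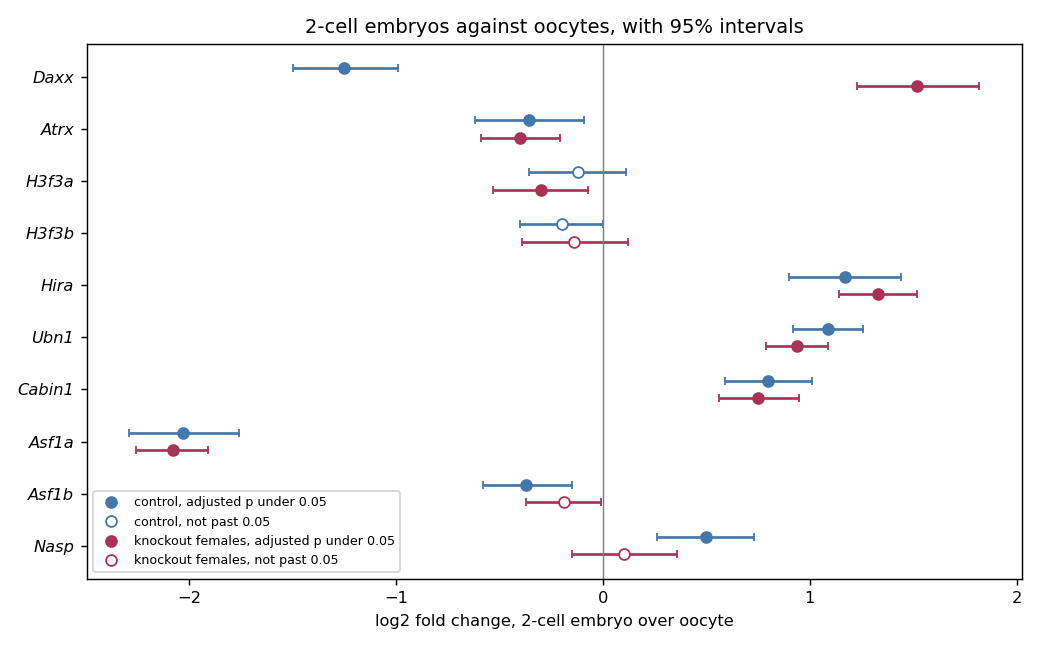
Log2 fold change of 2-cell embryos over oocytes for the 10 genes, in control libraries and in libraries of knockout females, from edgeR. Bars are 95% intervals and filled points have an adjusted p under 0.05. Daxx lies at -1.25 in control libraries and 1.52 in those of knockout females, while Hira, Ubn1, Cabin1 and Asf1a lie close together in both.

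Levels of different genes were compared per kilobase of gene width (RPKM, CPM divided by the width in kilobases). In control oocytes H3f3b was highest at 142 ± 2.27, followed by Asf1a at 102 ± 2.93, Nasp at 92.5 ± 3.08, Atrx at 70.9 ± 5.01 and Asf1b at 63.2 ± 2.66 (SD, n = 3), with no overlap between neighbours. Ubn1 (33.7), Daxx (32.6) and Cabin1 (29.6) followed with overlapping neighbours, Cabin1 overlapped H3f3a (26.8), and Hira was lowest at 7.13 ± 0.554. The limit on shared reads given above for Hira holds for its place in these orders. In knockout oocytes the order was that of the controls apart from Daxx, which came last at 2.87 ± 0.101 (SD, n = 3), below Hira at 6.85. In control embryos Nasp (133 ± 17.1) and H3f3b (126 ± 14.7) overlapped at the top, Ubn1 came next at 72.9 ± 1.59, and Asf1a had dropped to 25.5 ± 3.80, overlapping H3f3a at 25.0 (SD, n = 3). Hira at 16.3 and Daxx at 14.0 closed that order and overlapped. In maternal knockout embryos H3f3b (130) was above Nasp (99.8) without overlap, Hira stood at 17.8, and Daxx was again last at 8.52 ± 0.663 (SD, n = 2).

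Further lists cover other histone chaperones and Daxx partners with H3.3 readers, and their counts of calls were near those of the whole table. Of 29 other histone chaperone and assembly genes, 0 were called between oocyte genotypes (2 at an unadjusted p under 0.05, Ubn2 at -0.13 and Nap1l4 at -0.10 on the log2 scale) and 0 between embryo genotypes (0 at an unadjusted p under 0.05). Over all genes tested the shares called were 0.583% and 0.026%, and those at an unadjusted p under 0.05 were 10.3% and 3.19%. Of 20 genes for Daxx partners and H3.3 readers, 0 of the 19 tested in oocytes and 0 of 20 in embryos were called, with 0 at an unadjusted p under 0.05 in each. DESeq2 and limma-voom also called 0 in these comparisons. For the change of genotype effect from oocyte to embryo the calls were 0 of 29 and 0 of 20 in all 3 tools, with 3 and 1 genes at an unadjusted p under 0.05 in edgeR, beside 0.0118% called and 5.41% at that unadjusted p over all genes. The median log2 changes were -0.02 for both lists in oocytes, and -0.09 and -0.02 in embryos, beside 0.00 over all genes tested at each stage.

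Between control stages, 12 of the 29 chaperone genes were higher in embryos and 12 lower, and 9 and 5 of the 20 partner genes, against 43.1% higher and 40% lower over all genes tested. These counts are not read as particular to the lists. Npm2, the oocyte nucleoplasmin that helps remodel sperm chromatin, fell from 1103 ± 50.7 to 160 ± 32.0 CPM (SD, n = 3 each). Rbbp7, a histone-binding subunit shared by several chromatin complexes, fell from 1051 to 283 CPM and Vps72, an H2A.Z chaperone, from 57.5 to 15.2. Chd1, a remodeller that takes part in H3.3 deposition, rose from 50.0 ± 0.732 CPM to 579 ± 68.3 (log2 3.51, SE 0.11, edgeR adjusted p = 1.07e-10). Set, an H3 and H4 binding chaperone, rose from 6.93 to 104 CPM and Cdan1, a partner of the Asf1 proteins, from 16.4 to 117. Among the partners, the H3K9 methyltransferase gene Setdb1 fell from 486 ± 7.80 to 173 ± 9.86 CPM and the heterochromatin protein gene Cbx1 from 61.2 to 12.2. Hipk1, a kinase that binds Daxx, rose from 4.42 ± 0.658 CPM to 1279 ± 64.4 (log2 8.15, SE 0.13, edgeR adjusted p = 2.24e-12). Morc3, a nuclear body ATPase, rose from 56.0 to 176 CPM. Cbx3 went from 0.251 to 15.9 CPM, but its control oocyte libraries, at 0.176 to 0.368 CPM, lay near the floor of 3 reads (0.0754 to 0.0921 CPM in oocytes). It did not pass the filter among oocytes and entered the stage test through its embryo reads, so its p is not used. Those other changes without a printed p had an edgeR adjusted p of at most 1.43e-06.

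Genes with the most similar profiles were sought by the root mean square difference of centred log2(CPM + 1) values over the 11 libraries, among 9267 genes. No gene came close to Daxx, whose nearest was Cttnbp2 at 0.780, with group means of 56.5, 19.0, 32.1 and 15.9 CPM in control oocytes, knockout oocytes, control embryos and maternal knockout embryos. Fbxo16 (0.998) and Tcf4 (1.02) came next. H3f3a lay within 0.060 of Fbxo8, Hmgxb4 and Specc1l, H3f3b within 0.075 of Ccndbp1, Ccny and Pak4, and Asf1b within 0.071 of Bcat1, Nup214 and Ube4a. Small values are common among genes that change little, and the measure says nothing of a shared function.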

How the data were processed

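The deposited values were whole-number read counts per gene for 24421 Entrez identifiers in 11 libraries, with a width per gene. Per the submitters' processing notes, the authors mapped reads with STAR 2.5.0a to GRCm38 (mm10) and used SAMtools. The sources used here do not name the counting program. Per the labels' protocols, libraries were made from total RNA with a NuGEN SoLo kit. Symbols came from a RefSeq table of GRCm38.p6 (24387 identifiers matched). Libraries were grouped by their titles; replicate 1 of the maternal knockout embryo group is not analysed here. The labels call each pool 1 biological group. Count differences between replicates exceeded sampling noise in every pair (chi-square per degree of freedom 4.86 to 34.3), so none was merged.

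Tests used edgeR 4.0.16 (R 4.3.3): filterByExpr with a count minimum of 10 and a total minimum of 15, TMM factors, quasi-likelihood F tests with robust dispersions, and Benjamini-Hochberg adjustment over all genes tested (threshold 0.05). Intervals are 95% and use the SE and the test's degrees of freedom. CPM used library totals. Floors of 3 reads cover counting error only. Functions were tested on simulated counts. Alternatives were DESeq2 1.42.0, limma-voom (limma 3.58.1), RLE factors, library totals, 2 other filters, the replicate number as a block, 1 fit of all 11 libraries, and fits lacking 1 library at a time. All 10 genes were named; of the 2 further lists, genes called between genotypes and the 3 largest rises and falls between control stages with at least 10 CPM in the higher group (1 gene under this rule is not reported here). Similar profiles left out predicted genes, pseudogenes and small RNAs. Genes and lists were chosen with earlier results of these data known. Ubn2, Nap1l4 and Mcm9 were named after their values were seen.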

Additional observations from a re-analysis of the deposited data

Results flagged for a closer look

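The genotype effect on Daxx differed between the stages. The effect in embryos minus that in oocytes was 2.76 on the log2 scale (edgeR adjusted p = 3.38e-07), and every library followed it: all 3 control embryo libraries lay below all control oocytes, and both maternal knockout embryo libraries lay above all knockout oocytes. The value stayed between 2.66 and 2.88 over the 18 alternatives and passed in each.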

How the results depend on the processing

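Over the alternatives, 1 of the 10 genes was called between oocyte genotypes in every fit, 7 to 9 between control stages and 6 to 9 between stages in libraries of knockout females. For embryos the count was 0 except with all 11 libraries in 1 fit, where it was 1, Daxx at -0.76 (edgeR adjusted p = 0.0348). Deviations from the group mean correlated from -0.265 to 0.341 between same-numbered oocyte libraries of the 2 genotypes, beside -0.478 to 0.382 for different numbers. Between embryo genotypes the ranges were -0.209 to -0.036 and -0.152 to 0.209. Same numbers thus did not stand out there, and the numbers were not taken as pairs. With the replicate block Daxx was at -3.52 in oocytes and -0.77 in embryos. The counts with the block were 1, 0, 1, 8 and 6 over the 5 comparisons. Over all genes, the oocyte calls numbered 83, against 223 in DESeq2, 183 with no filter beyond 1 read, 22 with all libraries in 1 fit and, with 1 library left out, 23, 21 and 157 without control replicate 1, 2 or 3 and 53 and 49 without knockout replicate 1 or 3. The embryo calls numbered 4, against 10, 32 and 13 in those 3 settings, 2 in limma-voom, with library totals or with the block, 0 without control replicate 1 or 3 and 8 without maternal knockout replicate 3. Those for the difference between stages numbered 2, against 4 in DESeq2 and 1 to 3 with 1 library left out. Counted per kilobase, the H3.3 share of H3 reads was 16.4% in control oocytes, 15.8% in knockout oocytes, 9.59% in control embryos and 8.83% in maternal knockout embryos, in the same order of stages. Signs turned only for changes that had not passed with all libraries and the settings used for the report. Between oocyte genotypes H3f3a was at 0.00 with library totals, and leaving out 1 library gave -0.05 to 0.03 for H3f3a, -0.11 to 0.00 for H3f3b, -0.07 to 0.05 for Cabin1, -0.01 to 0.04 for Asf1a and -0.07 to 0.01 for Asf1b. Between embryo genotypes the replicate block gave -0.07 for H3f3b and 0.06 for Asf1a, and leaving out 1 library gave -0.18 to 0.18 for H3f3b, -0.19 to 0.05 for Asf1a, -0.01 to 0.18 for Hira and -0.16 to 0.02 for Cabin1. For the difference between stages the block gave 0.01 for Atrx, and leaving out 1 library gave -0.16 to 0.09 for Atrx, -0.11 to 0.22 for H3f3b, -0.20 to 0.03 for Asf1a and -0.15 to 0.05 for Cabin1. In libraries of knockout females the stage change ranged from -0.33 to 0.02 for H3f3b and from -0.13 to 0.28 for Nasp. The cause of these shifts was not tested. Where 1 maternal knockout embryo library was left, it was assumed to vary like the other groups.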
